A study of Ovis aries with 16 samples.

Results

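The genes described are PCNA, TYMS, CDK2 and CDK4, a pair of S-phase proteins and a pair of kinases that act before mitosis. Every probe that the array's own annotation assigns to one of these genes by name, sequence name or description was taken, which gave 5 of the 15008 probes and 4 of the 989 genes named on the array. PCNA had 2 probes, and TYMS, CDK2 and CDK4 had 1 each. A sixth probe is described with them because the annotation places it in the same sequence cluster as TYMS, although it carries no gene name in the files. It is called the TYMS cluster probe below, and the probe that the files describe as thymidylate synthetase is called the TYMS cDNA probe.

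The samples were left ventricles of 16 fetal sheep from 8 twin pairs. In sets 1 to 4, 1 twin received losartan, a blocker of the type 1 angiotensin II receptor, and the other twin had no infusion. In sets 5 to 8, 1 twin received angiotensin II and the other had no infusion. Catheters were placed at 125 to 126 days of gestation, with term at 145 days, and the hearts were taken after 5 days of treatment. The infusions went into the fetal circulation, and the labels call them daily in one place and continuous in another. The tissue is labelled as free wall, and the protocol adds the septum. All fetuses of a pair shared a ewe, so each treated fetus was set against a twin of the same pregnancy. RNA of each fetus went onto 1 array, so each of the 4 groups has 4 arrays, which limits the precision.

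PCNA is the ring-shaped clamp that holds DNA polymerase on its template. TYMS, thymidylate synthase, makes the thymidine nucleotide used only in DNA. Transcripts of both are typically abundant in cells that are about to copy, or are copying, their DNA. CDK4 with D-type cyclins acts in G1 and phosphorylates the retinoblastoma protein, and CDK2 with cyclins E and A acts at the start of S phase and through it. The kinases are controlled largely through their cyclins and inhibitors. In late gestation the sheep heart still holds dividing cardiomyocytes, while others are leaving the cell cycle and becoming binucleate.

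The probe sequences are given because they decide what each value can be said to measure. The PCNA probes come from 1 expressed sequence tag and start 30 bases apart, so the last 30 bases of one are the first 30 of the other, shown in capitals.

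PCNA probe 2 (A_70_P026207): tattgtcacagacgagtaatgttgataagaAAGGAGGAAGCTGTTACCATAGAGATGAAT

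PCNA probe 1 (A_70_P026206): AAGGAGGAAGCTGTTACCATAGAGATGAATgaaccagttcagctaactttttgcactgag

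These probes read overlapping stretches of 1 transcript and are not independent measurements of the gene. The probes of the other genes were each taken from a cDNA or transcript record of that gene.

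TYMS cDNA probe (A_70_P070554): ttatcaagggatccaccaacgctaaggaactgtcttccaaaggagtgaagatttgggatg

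CDK2 probe (A_70_P005046): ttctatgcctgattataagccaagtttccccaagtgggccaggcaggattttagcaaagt

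CDK4 probe (A_70_P059226): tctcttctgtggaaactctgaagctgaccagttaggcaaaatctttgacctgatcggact

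The TYMS cluster probe (A_70_P021761) was designed on another expressed sequence tag. Its sequence was not matched to a TYMS transcript here, so results from it are given under its own name. The probes are 60 bases long, with a GC content of 36.7% to 45%.

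Signals are given as log2 levels relative to the 75th percentile of the same array, so that 0 is the signal of a probe brighter than 75% of the others. Levels of different probes are not compared, because probes differ in how brightly they bind. The 75th percentile was 1099 to 1670 fluorescence units, and 57.3% to 64.1% of probes were well above background on an array. The arrays lay on 2 slides of 8. Of the losartan fetuses 1 was on slide 1 and 3 were on slide 2, and their untreated twins were placed the other way round. In the angiotensin II arm 2 treated fetuses and 2 untreated twins shared each slide. On the first principal component (32.1% of the variance) 3 arrays stood apart, with scores of 30.14 to 39.83 against -19.01 to -0.44 for the other 13. They were the angiotensin II fetuses of sets 7 and 8 and the untreated twin of set 2, all on slide 2 in the same array row, and results are given below with and without these 3 twin sets. Of 21 cardiomyocyte markers 3 were on the array (MYH7, MB and TPM1), and all 3 were well above background on all 16 arrays.

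PCNA was lower with losartan than in the untreated twin in 4 of 4 twin sets. The tissue was measured in bulk, so fewer cells with PCNA transcripts and less of the transcript per cell cannot be told apart. On PCNA probe 1 the losartan fetuses of sets 1 to 4 had log2 levels of -0.39, -0.45, -0.55 and -0.69, against 0.20, 0.35, 0.07 and 0.20 in their untreated twins. These groups did not overlap, and the lowest untreated twin lay above the highest losartan fetus. The group means were -0.52 ± 0.13 with losartan and 0.20 ± 0.12 in the untreated twins (SD, n = 4 each). The fitted change was -0.73 (SE 0.11, limma adjusted p = 0.0128), which is 1.66-fold lower with losartan. Of all 8970 probes tested, 1.22% were called with losartan at an adjusted p under 0.05, 0.992% lower and 0.223% higher, and 1.93% had a more negative estimate than this probe.

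On PCNA probe 2 the same fetuses had log2 levels of -2.59, -2.65, -2.74 and -2.66 with losartan, against -1.86, -1.84, -1.92 and -1.93 in the untreated twins. The groups again did not overlap, and each was tight, with SDs of 0.06 with losartan and 0.05 in the untreated twins. The change was -0.77 (SE 0.09, limma adjusted p = 0.00433), or 1.71-fold lower. The probes' twin log2 ratios differed by at most 0.19 in any of the 8 twin sets. Because they read overlapping bases of 1 transcript, their likeness bears on the precision of the array and counts as 1 observation of the gene.

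In the angiotensin II arm the PCNA estimates lay above 0 and did not pass. Levels on PCNA probe 1 were 0.44, 0.57, 1.02 and -0.14 in the angiotensin II fetuses of sets 5 to 8, against 0.21, 0.23, 0.37 and -0.38 in their untreated twins. Each angiotensin II fetus was above its own twin, yet the groups overlapped because the fetuses of set 8 were low in both groups. The twin log2 ratios were 0.22, 0.35, 0.66 and 0.24, and the fitted estimate was 0.37 (SE 0.11, 95% interval 0.12 to 0.61, unadjusted p = 0.00733, limma adjusted p = 0.458). On PCNA probe 2 the ratios were 0.20, 0.29, 0.50 and 0.41, with an estimate of 0.35 (SE 0.09, unadjusted p = 0.00346, limma adjusted p = 0.457). In this comparison 0% of the 8970 probes were called, 938 had an unadjusted p under 0.05, and the smallest adjusted p of any probe was 0.427.

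**Figure D1:**
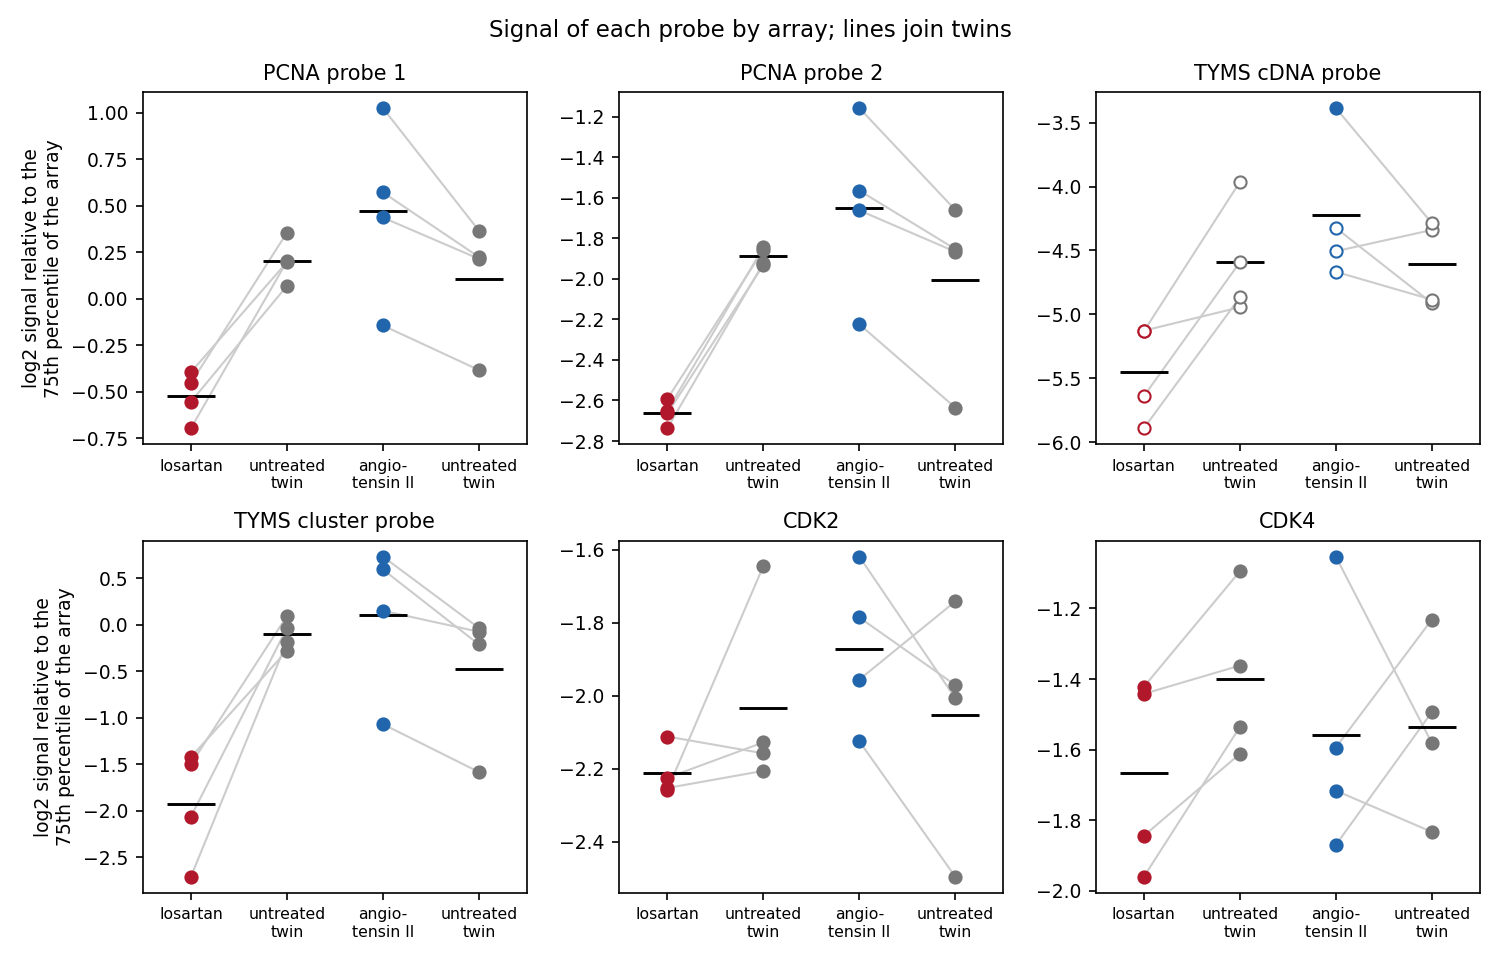
Log2 signal relative to the 75th percentile of the array (y axis) for each of 6 probes, with 1 point per fetus, black bars at the group means and grey lines joining twins; open points were not well above background. On PCNA probes 1 and 2 and on the TYMS cluster probe the losartan fetuses lie below their untreated twins, while the CDK2 and CDK4 groups overlap.

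The TYMS cDNA probe, the only one that the files describe as thymidylate synthetase, was close to the background. It was well above background on 1 of 16 arrays, that of the angiotensin II fetus of set 7. The main tests therefore left it out, and no fold is given. With no filter on dim probes it did not pass with losartan (limma adjusted p = 0.118) or angiotensin II (0.636). The difference between the treatments did not pass either (limma adjusted p = 0.0916). Its log2 levels were -5.13, -5.13, -5.64 and -5.89 in the losartan fetuses of sets 1 to 4, against -4.95, -3.96, -4.59 and -4.87 in their untreated twins. On this scale the groups did not overlap, and the losartan fetus was the lower twin in 4 of 4 sets, but none of these 8 values was well above background. Levels were -4.51, -4.32, -3.38 and -4.67 in the angiotensin II fetuses of sets 5 to 8, against -4.34, -4.91, -4.29 and -4.88 in their untreated twins, and these groups overlapped. Before scaling to the array, its processed signal was 22.2 to 47.8 units in the losartan fetuses and 35.7 to 93.6 units in their untreated twins. In the other arm it was 53.1 to 158 units in the angiotensin II fetuses and 42.2 to 80.8 units in their untreated twins. Unscaled, the losartan and untreated ranges overlapped.

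The TYMS cluster probe was well above background on all 16 arrays and had the largest change of the 5 tested probes. Its log2 levels were -1.50, -1.42, -2.06 and -2.71 in the losartan fetuses of sets 1 to 4, against 0.09, -0.28, -0.04 and -0.18 in their untreated twins. All 4 losartan fetuses were below all 4 untreated twins, and they were spread more widely, with an SD of 0.59 against 0.16. The twin log2 ratios were -1.59, -1.14, -2.02 and -2.52. The fitted change was -1.82 (SE 0.20, limma adjusted p = 0.00286), or 3.53-fold lower with losartan, and 0.39% of the tested probes had a more negative estimate.

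With angiotensin II the TYMS cluster probe had log2 levels of 0.15, 0.59, 0.73 and -1.07 in sets 5 to 8, against -0.08, -0.21, -0.04 and -1.58 in the untreated twins. Each angiotensin II fetus was above its twin, by 0.23, 0.80, 0.77 and 0.51, and the estimate was 0.58 (SE 0.20, 95% interval 0.13 to 1.02, limma adjusted p = 0.459). Both fetuses of set 8 were far below the others of their groups on this probe. The same was true of the PCNA probes, where the angiotensin II fetus of set 8 was the lowest of its group and the untreated twin of set 8 the lowest of its own. The twin ratios of set 8 were nevertheless within the range of the other 3 sets on all 3 of these probes. In this arm the log2 levels of PCNA probe 2 had an SD of 0.44 in the angiotensin II fetuses and 0.43 in their untreated twins, while its twin log2 ratios had an SD of 0.13 (n = 4 each). On the TYMS cluster probe the SDs were 0.82 and 0.74 for these levels and 0.27 for the ratios.

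CDK2 did not pass in either arm. Its log2 levels were -2.25, -2.26, -2.11 and -2.23 with losartan, against -2.21, -1.65, -2.16 and -2.13 in the untreated twins. The groups overlapped, and the untreated twin of set 2, an array that stood apart, was alone at the high end. The twin log2 ratios were -0.05, -0.61, 0.05 and -0.10, and the estimate was -0.18 (SE 0.14, 95% interval -0.49 to 0.14, limma adjusted p = 0.649). Without sets 2, 7 and 8 it was -0.03 (limma adjusted p = 0.959). With angiotensin II the levels were -1.96, -2.13, -1.62 and -1.79, against -1.74, -2.50, -2.01 and -1.97 in the untreated twins. The ratios were -0.21, 0.37, 0.39 and 0.18, so 3 of 4 were above 0, and the estimate was 0.18 (95% interval -0.13 to 0.50, limma adjusted p = 0.591).

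CDK4 did not pass either. Its log2 levels were -1.44, -1.42, -1.84 and -1.96 with losartan, against -1.36, -1.10, -1.61 and -1.54 in the untreated twins. The ratios, -0.08, -0.33, -0.23 and -0.42, were below 0 in 4 of 4 sets, but the groups overlapped, and the estimate was -0.27 (SE 0.15, 95% interval -0.61 to 0.07, limma adjusted p = 0.517). With angiotensin II the levels were -1.59, -1.72, -1.05 and -1.87, against -1.23, -1.83, -1.58 and -1.49 in the untreated twins. The ratios of -0.36, 0.12, 0.53 and -0.38 split evenly in sign, and the estimate was -0.02 (95% interval -0.36 to 0.32, limma adjusted p = 0.955). The intervals of both kinases with losartan reach changes of -0.49 and -0.61, so small falls cannot be told from none at this sample size. The -0.73 estimated for PCNA probe 1 lies outside both, but its own 95% interval, -0.97 to -0.49, overlaps them. With the slide added to the fit, the losartan estimates were -0.31 for CDK2 and -0.42 for CDK4 (limma adjusted p = 0.269 and 0.197). Within slide 2, where the only untreated twin of this arm was the array of set 2 that stood apart, they were -0.60 and -0.51. Within slide 1 they were 0.05 and -0.34.

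**Figure D2:**
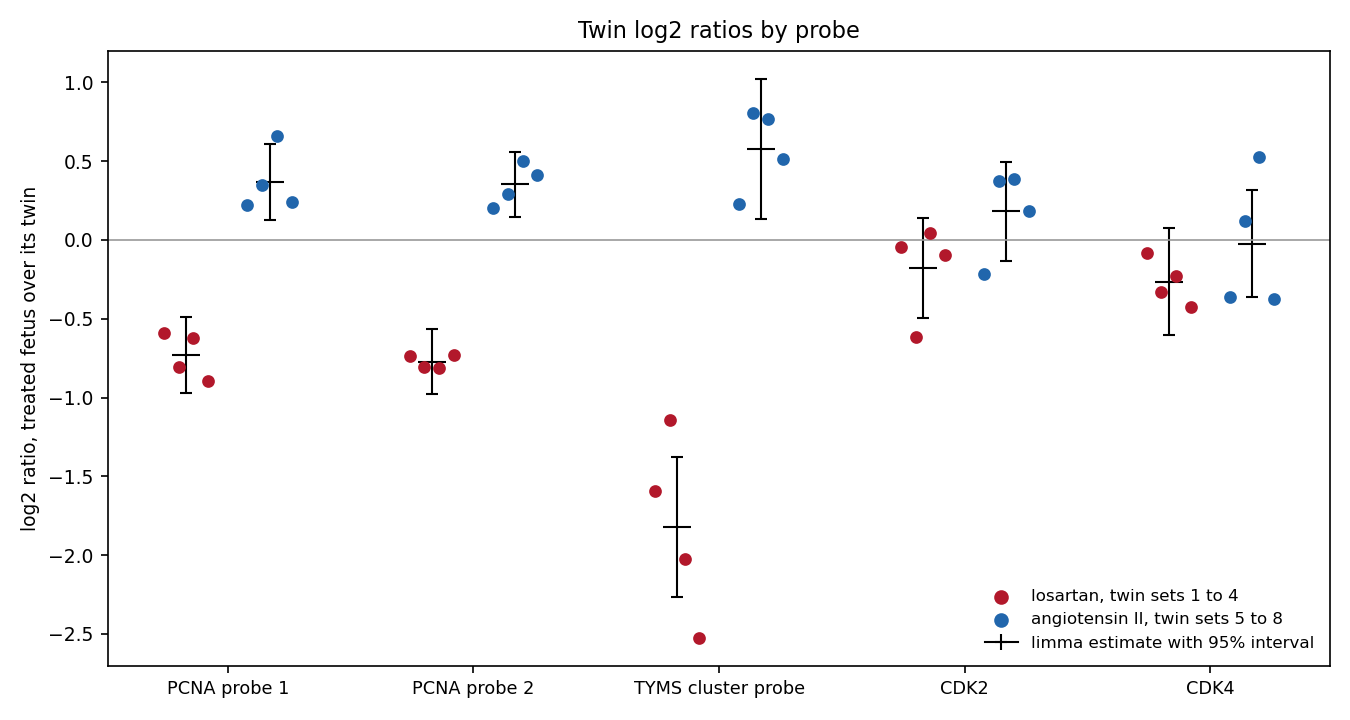
Twin log2 ratios, treated fetus over its untreated twin (y axis), for the 5 tested probes, with 1 point per twin set and the limma estimate with its 95% interval in black. The losartan and angiotensin II ratios lie on opposite sides of 0 for both PCNA probes and the TYMS cluster probe and mingle for CDK4.

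Within a twin set, the mean of PCNA probe 1 and the TYMS cluster probe moved further than that of the kinases in the direction of the arm. In the losartan arm the mean twin log2 ratio of PCNA probe 1 and the TYMS cluster probe was -1.09, -0.97, -1.32 and -1.71 in sets 1 to 4. The mean ratio of CDK2 and CDK4 was -0.06, -0.47, -0.09 and -0.26 in the same sets. The difference between these means was -1.03, -0.51, -1.23 and -1.45 in the losartan arm and 0.51, 0.33, 0.26 and 0.47 in the angiotensin II arm. With PCNA probe 1 alone in place of the pair the difference was -0.53, -0.34, -0.53 and -0.64 with losartan and 0.51, 0.10, 0.20 and 0.33 with angiotensin II. These are descriptions of 8 twin sets and were not tested.

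The effects of angiotensin II and losartan differed on the PCNA probes and on the TYMS cluster probe. The angiotensin II change minus the losartan change was 1.10 (SE 0.15, limma adjusted p = 0.00874) on PCNA probe 1 and 1.12 (SE 0.13, limma adjusted p = 0.00355) on PCNA probe 2. It was 2.40 (SE 0.28, limma adjusted p = 0.00371) on the TYMS cluster probe. Of all tested probes, 1.65% were called in this comparison, 1.3% higher and 0.346% lower. For the kinases it was 0.36 for CDK2 (95% interval -0.08 to 0.81, limma adjusted p = 0.321) and 0.24 for CDK4 (95% interval -0.24 to 0.72, limma adjusted p = 0.524). These kinase values rest in part on single twin sets, with 0.22 for CDK2 without set 2, 0.11 without sets 2, 7 and 8, and 0.06 for CDK4 without set 7. An exact permutation test of the 4 ratios of one arm against the 4 of the other, two-sided, gave p = 0.0286 for each of the PCNA probes and for the TYMS cluster probe, the smallest that 4 against 4 allows. The same exact test gave p = 0.1429 for CDK2 and p = 0.3429 for CDK4.

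Because losartan fetuses and their twins were placed unevenly on the slides, the losartan estimates were also taken within each slide, where the twin block had to be dropped and a lone fetus of a group is assumed to vary like the other groups. On slide 1, with 1 losartan fetus and 3 untreated twins of that arm, they were -0.71 on PCNA probe 1 (limma adjusted p = 0.14), -0.83 on PCNA probe 2 (0.0736) and -2.02 on the TYMS cluster probe (0.00571). On slide 2, with 3 losartan fetuses and 1 untreated twin, they were -0.87 (limma adjusted p = 0.243), -0.79 (0.274) and -1.60 (0.269) for PCNA probe 1, PCNA probe 2 and the TYMS cluster probe. The estimates were of like size on either slide. The lone untreated twin on slide 2 was that of set 2, an array that stood apart on the first principal component. Each slide 2 estimate therefore rests on that array, and a part of the slide was not tested. With the slide added to the twin block all 3 passed, at -0.80 on PCNA probe 1 (limma adjusted p = 0.028), -0.84 on PCNA probe 2 (0.00835) and -1.83 on the TYMS cluster probe (0.0128). Without twin sets 2, 7 and 8 the losartan estimates were -0.70 (limma adjusted p = 0.0354), -0.76 (0.0183) and -2.05 (0.00812), and all 3 passed. The difference between the treatments was then 0.99 on PCNA probe 1 and no longer passed (limma adjusted p = 0.0686), while it was 1.01 on PCNA probe 2 (0.049) and 2.56 on the TYMS cluster probe (0.0217). With the twin block left out altogether, none of the 5 probes passed with losartan. With complete pairs the estimates of that fit are the same by construction, and only the p-values can change. The estimates were -0.73 for PCNA probe 1 (limma adjusted p = 0.218), -0.77 for PCNA probe 2 (0.204) and -1.82 for the TYMS cluster probe (0.125). The call for PCNA probe 1 was also lost without twin set 3 (-0.76, limma adjusted p = 0.0619) and without twin set 4 (-0.67, limma adjusted p = 0.0776), whereas PCNA probe 2 and the TYMS cluster probe passed whichever of sets 1 to 4 was left out.

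**Figure D3:**
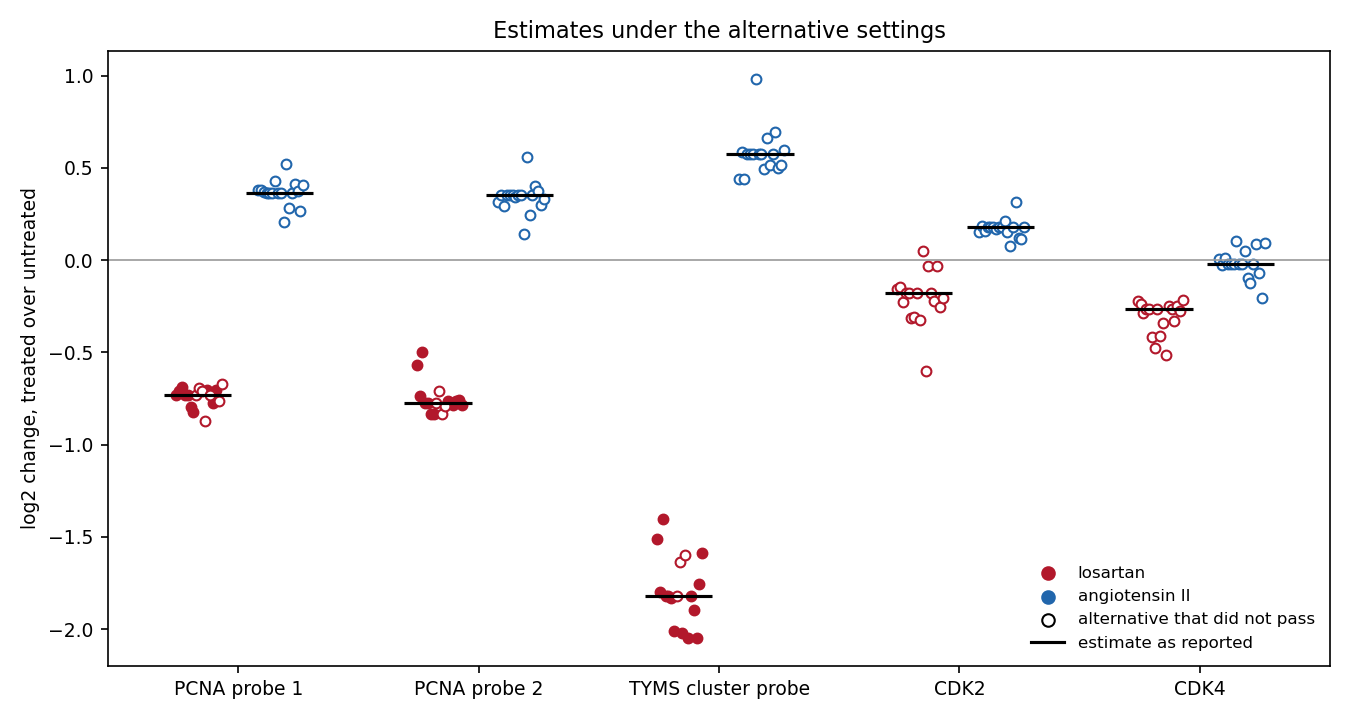
Estimates of the log2 change, treated over untreated (y axis), for the 5 tested probes under the alternative settings, 1 point per setting, filled where the limma adjusted p was under 0.05, with black bars at the reported estimate. The losartan estimates of both PCNA probes and the TYMS cluster probe run from -2.05 to -0.50, and no angiotensin II estimate of any of the 5 probes passed.

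The untreated twins of the angiotensin II arm and those of the losartan arm did not differ detectably on any of these probes. The difference was -0.10 on PCNA probe 1 (95% interval -0.47 to 0.27), -0.12 on PCNA probe 2 (-0.55 to 0.32) and -0.37 on the TYMS cluster probe (-1.08 to 0.33). Without the untreated twin of set 8 the last of these was -0.0054. It was -0.02 for CDK2 (95% interval -0.44 to 0.40) and -0.13 for CDK4 (-0.50 to 0.23), and the limma adjusted p was 1 for all 5. None of the 8970 probes passed in this comparison, and 300 had an unadjusted p under 0.05. By group mean, PCNA, the TYMS cluster probe and CDK2 had the same order, with angiotensin II fetuses highest, then the untreated twins of the losartan arm, then those of the angiotensin II arm, then the losartan fetuses. For CDK4 the untreated twins of the losartan arm were highest, followed by those of the angiotensin II arm, the angiotensin II fetuses and the losartan fetuses. Neighbours in these orders overlapped in every case but 1, the losartan fetuses on PCNA probe 1, which lay below the untreated twins of the angiotensin II arm.

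Around these genes, few others of the same pathway could be measured. Of 49 genes listed for S-phase replication and nucleotide synthesis, 5 had a probe, and PCNA, DNMT1 and RPA1 were tested through probes of their own. Of these 3, PCNA fell with losartan and none rose, beside 0.992% called lower and 0.223% called higher of all tested probes. The TYMS cluster probe also fell, but its link to the list rests on the sequence cluster. DNMT1, which copies DNA methylation onto new strands, had an estimate of -0.30 (limma adjusted p = 0.231) and was below 0 in 4 of 4 sets. RPA1, a subunit of the protein that coats single-stranded DNA, had an estimate of -0.47 (limma adjusted p = 0.458). Its twin log2 ratios were 0.08, -1.16, -0.38 and -0.44 with losartan and -0.44, 0.06, 0.74 and 0.87 with angiotensin II. The largest of these in size were in sets 2, 7 and 8, which hold the arrays that stood apart. The median losartan estimate of the 3 was -0.47, which is that of RPA1. With the cluster probe it was -0.60, beside 0.01 over all tested probes. With angiotensin II the median of the 3 was 0.31, again that of RPA1, or 0.34 with the cluster probe. The median over all tested probes was -0.03, and none of the list passed.

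CDK2 and CDK4 belong to a list of 37 G1 and S kinases, cyclins and their regulators, of which 9 were tested. In it 1 gene fell with losartan and 1 rose, beside 0.992% called lower and 0.223% called higher of all tested probes. The one that fell was CCNA2, cyclin A2, a partner of CDK2 in S phase, with a change of -1.88 (SE 0.22, limma adjusted p = 0.00431). CCNA2 was well above background on 1 of 4 losartan arrays, against 4 of 4 of the untreated twins. It entered the tests only through groups where it is high. The size and the p-value of this change rest mostly on losartan signals below background and are rough. MYC, a transcription factor that promotes entry into the cell cycle, rose by 0.65 (SE 0.12, limma adjusted p = 0.0323) and was higher in 4 of 4 losartan fetuses than in their twins. CCND2, cyclin D2, a partner of CDK4, was lower in 4 of 4 sets, with an estimate of -1.20 that did not pass (SE 0.28, 95% interval -1.82 to -0.57, limma adjusted p = 0.0886). CCND3, cyclin D3, another partner of CDK4, had an estimate of 0.24 (limma adjusted p = 0.491). The inhibitors CDKN1B and CDKN1C, which block cyclin-bound kinases, were estimated at -0.11 (limma adjusted p = 0.705) and -0.16 (0.737). The median losartan estimate of the 9 genes was -0.18, and with angiotensin II it was 0.08 with none passing.

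The mitosis list is given for comparison. Of its 34 genes 5 had a probe and 4 were tested. CDK1, the mitotic kinase, changed by -2.07 (SE 0.22, limma adjusted p = 0.00238), beside the -0.18 of CDK2 and the -0.27 of CDK4 that did not pass. The size and p-value for CDK1 are rough, since it was well above background on 2 of 4 losartan arrays. ASPM, a spindle pole protein, was on 0 of 4. It entered the tests only through the untreated twins of that arm, where it was on 4 of 4. For ASPM only a bound holds, at least 1.92-fold lower with losartan. Its fitted p-value rests on signals below background and is not given. CCNB1, the cyclin of mitotic entry, fell by 2.19 (limma adjusted p = 0.00855) and HMMR, a spindle protein, by 1.54 (limma adjusted p = 0.00941) on the log2 scale. For HMMR 1 array lacked a value, and its fit rests on the others.

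**Figure D4:**
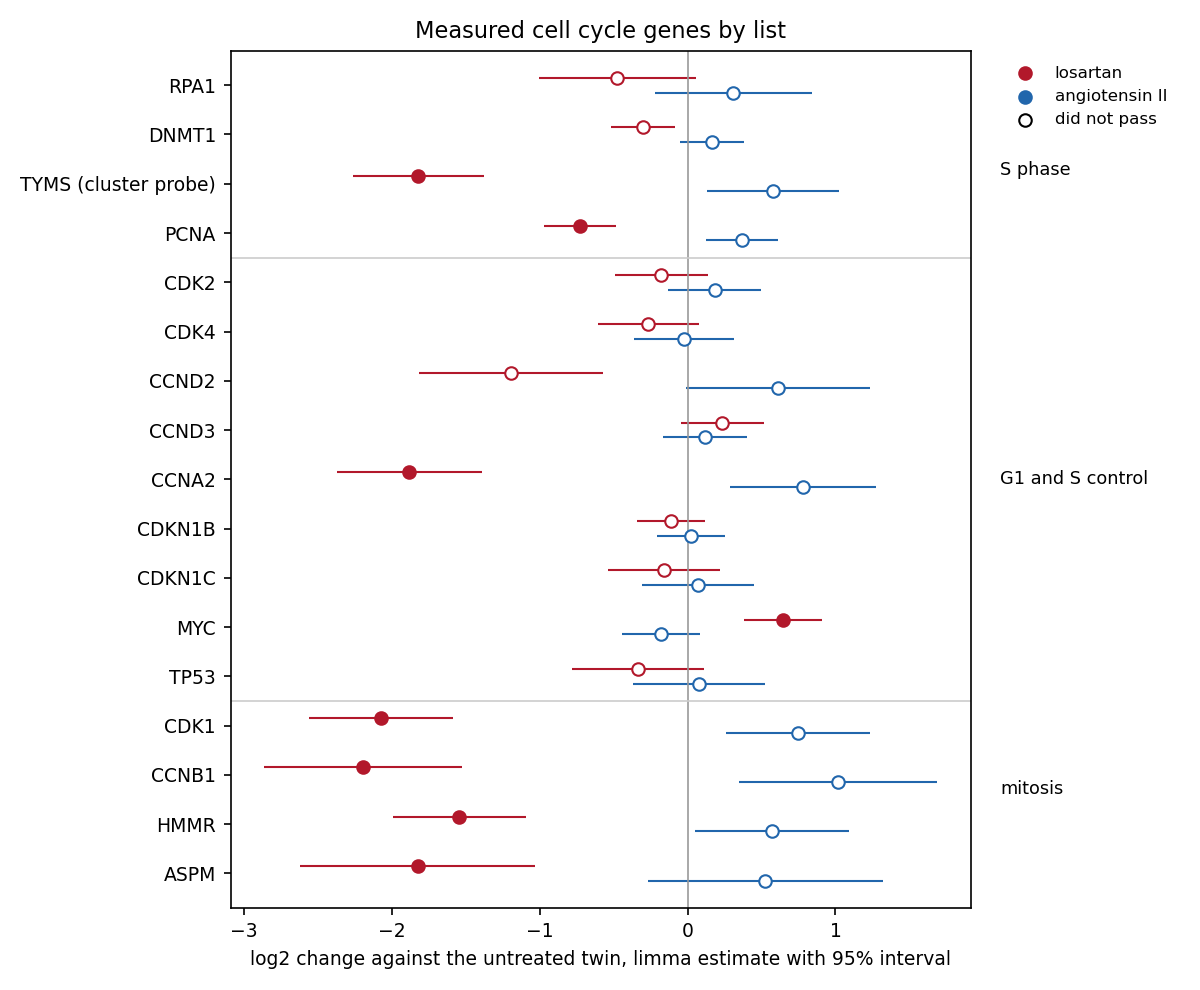
Limma estimates of the log2 change against the untreated twin, with 95% intervals (x axis), for the 17 tested genes of the S-phase, G1 and S, and mitosis lists (rows), filled where the adjusted p was under 0.05; the ASPM value with losartan is fitted from signals below background and stands only as a bound. CDK2 and CDK4 lie near 0 in both arms. The TYMS cluster probe, CCNA2 and the mitosis genes lie furthest to the low side with losartan and lie on the high side with angiotensin II. PCNA lies on the same sides but nearer 0. The S-phase genes RPA1 and DNMT1 lie nearer 0 than PCNA and did not pass. CCNA2 was well above background on 1 of 4 losartan arrays and CDK1 on 2 of 4, so their losartan values are rough.

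Some smooth muscle markers fell with losartan, as the PCNA probes and the TYMS cluster probe did. Of 7 smooth muscle markers 3 were tested, and 2 fell with losartan, beside 0.992% called lower of all tested probes. These were CNN1, by 1.42 (limma adjusted p = 0.0249), and MYL9, by 1.06 (limma adjusted p = 0.00855), on the log2 scale. The third, MYLK, had twin log2 ratios of 1.75, -1.94, -0.82 and -0.41 with losartan and an estimate of -0.36 that did not pass (limma adjusted p = 0.798). With angiotensin II none passed, at 1.09 for CNN1 (limma adjusted p = 0.45), 0.93 for MYL9 (0.427) and -0.20 for MYLK (0.863). The summed signal of the 3, as a percent of the array's 75th percentile, was 1338 to 2028 in the losartan fetuses and 3006 to 4363 in their untreated twins. It was 5224 to 7605 in the angiotensin II fetuses and 2934 to 4342 in their untreated twins. All 3 were well above background on 16 of 16 arrays. None of the 3 tested cardiomyocyte, 4 fibroblast, 2 endothelial, 2 leukocyte and 1 erythroid markers passed in either arm. The fibroblast sum was 9370 to 13440 percent with losartan and 11870 to 15470 percent in the untreated twins, and 7758 to 11390 percent with angiotensin II and 9315 to 12230 percent in theirs. The part of these cells in the PCNA and TYMS cluster results was not tested.

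The genes whose 8 twin log2 ratios were most like those of each probe were found among 504 other named and tested genes, by the root mean square of the differences. For PCNA probe 1 they were JUND, a member of the Jun family of transcription factors (0.18), SNAI2, a transcriptional repressor (0.23), and ASRGL1, an asparaginase (0.24), beside a median of 0.64 over all candidates. For PCNA probe 2 they were JUND (0.21), SNAI2 (0.27) and TIMP1, an inhibitor of matrix metalloproteinases (0.27). JUND had twin ratios of -0.59, -0.60, -0.56 and -0.75 with losartan and 0.00, 0.62, 0.42 and 0.13 with angiotensin II. For the TYMS cluster probe they included CCNA2 (0.27) and CDK1 (0.28), beside a median of 1.41. These distances are rough, since CCNA2 was well above background on 1 and CDK1 on 2 of the 4 losartan arrays. The third was ASPM, for which no distance is given because it was below background on all 4. For CDK2 they were PER2, a protein of the circadian clock (0.15), HIF1A, a transcription factor of the hypoxia response (0.16), and SLC25A11, a mitochondrial carrier (0.16), beside a median of 0.42. For CDK4 they included SLC39A3, a zinc transporter (0.22), and PYGM, muscle glycogen phosphorylase (0.22), beside a median of 0.45. PCNA and the TYMS cluster probe shared none of their 3 nearest genes. No cyclin or mitosis gene was among those of PCNA, CDK2 or CDK4. The distance counts the size of the ratios as well as their pattern. A gene that changed far more than a probe, as CCNA2 and CDK1 did beside PCNA, is therefore distant whatever its pattern. Likeness of pattern alone was not tested.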

How the data were processed

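RNA of 16 fetal left ventricles was labelled with Cy5 and hybridized to a 1-colour Agilent sheep array, 1 array per fetus. Per the file headers, the authors deposited an intensity per spot from Agilent Feature Extraction 10.7.3.1, with background subtracted and a spatial trend removed but arrays not normalized to each other. The values in the deposited table of the series follow the natural log of each spot's mean signal, as found by setting each column against its array (r of at least 0.9978). Its column medians were 5.755 to 5.768, and its method is not given in the sources. It served as an alternative only.

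Of 15744 spots per array, 15208 were not controls and stood for 15008 probes. Control spots and spots marked as outliers (3 to 9 per array) were left out, no spot was saturated, and spots of 1 probe were averaged. Each processed signal was divided by its array's 75th percentile before log2 was taken, so levels and folds are relative to that percentile. A probe had to be well above background on all 4 arrays of some group, which 8970 were. Gene names came from the files and from a RefSeq gene table (assembly ARS-UI_Ramb_v3.0), which named 1660 probes and left 13348 unnamed. The sources used here give no build for the array, so no coordinates are printed.

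Groups and twin sets came from the labels. Changes were fitted in limma 3.58.1 (R 4.3.3) over all 16 arrays with the twin set as a fixed block (6 residual and 3.68 prior degrees of freedom), two-sided, with Benjamini-Hochberg adjustment over the 8970 probes and a threshold of 0.05. The untreated arms were compared over 8 arrays without a block. With the block, limma p-values measure the spread of the twin differences over both arms, moderated by that of all tested probes. Those of the untreated arms measure the spread between fetuses of a group. The pairing comes from the labels. Deviations from group means correlated within pairs at 0.239 to 0.533 in sets 2, 3, 6 and 8, whose twins shared a slide. In sets 1, 4, 5 and 7, whose twins were on different slides, the correlations were -0.0386 to 0.221. The parts of twin and slide in this likeness were not tested. Tested on simulated data, the losartan fit recovered 83% of probes changed by 1 on the log2 scale and 99% of those changed by 2, among 8965 probes. Exact tests used scipy 1.17.1, and figures matplotlib 3.10.9, in Python 3.11.15 with numpy 2.4.6 and pandas 2.3.3.

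The genes and lists were chosen with earlier results of these data known. Named beside the 4 genes are, for each of their probes, the 3 genes with the most similar twin ratios, up to 4 genes per list with the smallest unadjusted p, CCNA2 and CDK1; CCND3 and the CDK inhibitors were added after their values were seen. A withheld item is not reported here. Where 1 probe stands for a gene, it is the one with the highest mean. Alternatives changed the background correction (normexp, offset 50), the normalization, the source of values, the filter, the blocks for twin set, slide and array row, and the twin sets included.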

Additional observations from a re-analysis of the deposited data

Results flagged for a closer look

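On 3 probes the angiotensin II effect differed from the losartan effect by a test of the difference itself in limma. The angiotensin II change minus the losartan change was 1.095 on PCNA probe 1 (adjusted p = 0.00874), 1.125 on PCNA probe 2 (adjusted p = 0.00355) and 2.398 on the TYMS cluster probe (adjusted p = 0.00371), on the log2 scale. The twin log2 ratio on each of these 3 probes was below 0 in 4 of 4 twin sets with losartan. With angiotensin II it was above 0 in 4 of 4. The share of all tested probes with this pattern is not given.

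Of 34 groups of 4 values tested for a value far from the other 3 by Dixon's test, 2 had one, and chance alone flags about 5% of such groups. The TYMS cluster probe had a log2 level of -1.583 in the untreated twin of set 8, far below the other untreated twins of the angiotensin II arm, whose levels were -0.21 to -0.04. CDK2 had a log2 level of -1.645 in the untreated twin of set 2, above the -2.21 to -2.13 of the other untreated twins of the losartan arm. That array was 1 of the 3 that stood apart on the first principal component.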

How the results depend on the processing

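With losartan, PCNA probe 1 passed in 10 of 17 alternatives, PCNA probe 2 in 13 of 17, the TYMS cluster probe in 14 of 17, and CDK2 and CDK4 in 0 of 17; for the difference between treatments the counts were 16, 17, 18, 1 and 0 of 20. With angiotensin II none of these probes passed in any of 17. The cause of the changes below was not tested. Fits that drop some arrays also rest on fewer of them.

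Without the replicate block for twin pairing, the losartan estimates on PCNA probe 1, PCNA probe 2 and the TYMS cluster probe were -0.73, -0.77 and -1.82 and did not pass, nor did the differences of 1.10, 1.12 and 2.40 (limma adjusted p = 0.12, 0.112 and 0.0873). With the slide in place of that block the losartan estimates were -0.69, -0.71 and -1.64, also not passing (limma adjusted p = 0.14, 0.132 and 0.101). Within slide 1 the losartan estimates of the PCNA probes (-0.71 and -0.83) and their differences (0.92 and 0.98) did not pass. Within slide 2 the losartan estimates of -0.87, -0.79 and -1.60 and the differences of 1.39, 1.35 and 2.26 on the same 3 probes did not pass. The losartan arm alone gave -0.73 on PCNA probe 1 (limma adjusted p = 0.0668). Leaving out 1 twin set of the arm at a time gave -0.78 to -0.67 on that probe, and leaving out sets 2, 7 and 8 gave a difference of 0.99.

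For the kinases, the CDK2 estimate with losartan was 0.052 within slide 1, against -0.18, and its difference between treatments was 0.75 within slide 2 and passed (limma adjusted p = 0.0498). The CDK4 estimate with angiotensin II, -0.02, turned above 0 with normexp (0.0093), in the authors' deposited values (0.0135), with twin set, slide and array row as blocks (0.10) and within slide 1 (0.0521), and ran from -0.21 to 0.0947 when 1 set was left out. Leaving out 1 set gave a difference between treatments of 0.22 to 0.49 for CDK2 and 0.06 to 0.36 for CDK4. Between the untreated arms, leaving out 1 fetus gave -0.19 to 0.0639 on PCNA probe 1, -0.23 to 0.10 on PCNA probe 2, -0.12 to 0.13 for CDK2, -0.52 to -0.0054 on the TYMS cluster probe and -0.23 to -0.0318 for CDK4, with the sign turned without set 8 for PCNA and without set 2 or 6 for CDK2.

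Over all probes, the 109 losartan calls became 434 in the authors' deposited values, 57 with probes well above background on all 16 arrays, 71 with the slide beside the twin block, 0 without the replicate block, 29 with the slide alone, 42 within slide 1, 546 within slide 2, 34 in the losartan arm alone and 33 to 98 without 1 twin set. The 0 angiotensin II calls became 353 within slide 2 and 1 without sets 2, 7 and 8. The 148 calls of the difference became 1734, 98, 427, 3, 645, 38 and 1880 under the first 7 of those settings, 75 without sets 2, 7 and 8 and 48 to 109 without 1 twin set; the untreated arms gave 0 to 1 without 1 fetus.

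Like these counts, the calls of the PCNA probes and the TYMS cluster probe moved. PCNA probe 1 passed with losartan in 10 of 17 alternatives. The losartan estimates of the PCNA probes and the TYMS cluster probe kept their sign. Settings that change only the filter, or drop the twin block over all 16 arrays, leave these estimates the same by construction. Precision is limited by 4 pairs per arm, by the uneven placing of the losartan arm on the slides, and for TYMS by a named probe near background.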
